A study of Mus musculus with 16 samples.

Results

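The binding of Oct4 was compared with that of Oct4defSox2, an Oct4 with the interface mutations I21Y and D29R that disrupt its DNA-dependent dimer with Sox2, on day 1 of reprogramming. Each factor was represented by 1 list of ChIP-seq peak summits, made with an antibody against Oct4. On chromosomes 1 to 19, X and Y the lists held 8199 Oct4 and 31060 Oct4defSox2 summits, which together were 39259 of the 226962 summits of the 13 lists of the series. A summit counted as shared when a summit of the other list lay within 100 bp. All other sites are called Oct4-only or Oct4defSox2-only.

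Both libraries came from OG2 MEFs, which are embryonic fibroblasts of the mouse with a GFP reporter driven by the Oct4 promoter. They were transduced 2 times with retroviral pMX vectors for Sox2 and Klf4 together with Oct4 (Oct4-SK) or Oct4defSox2 (Oct4defSox2-SK), and day 1 was counted from the switch to the chemically defined iCD1 medium. Both groups thus carried ectopic Sox2 and Klf4 and the endogenous Oct4 gene, and differed in the POU factor. There was 1 library per group, so intervals below cover counting error among sites only and compare these 2 libraries, not the conditions. Summit lists carry no expression values, so the cell type of the label could not be checked against markers.

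Oct4, encoded by Pou5f1, reads DNA through a POU-specific domain and a POU homeodomain joined by a flexible linker. With Sox2 it forms a heterodimer on the SoxOct element, in which a Sox site stands next to an octamer, a combination found in many enhancers of pluripotent cells. Without Sox2 it can bind the octamer alone or form a homodimer on the palindromic MORE element or its variant with 1 more base in the centre, MORE+1. The comparison asked which of these elements were occupied by a factor that is impaired in the heterodimer.

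The sequences of sites with a SoxOct match show how far the element varied between the classes. All are from the plus strand of GRCm38 (mm10), with the SoxOct match in capitals. For each class 1 site with a perfect match to the consensus is given, the strongest where several tied, chosen after the values had been seen, together with the strongest site that held no MORE match.
Sox9 site (shared), chr11:112811230-112811310: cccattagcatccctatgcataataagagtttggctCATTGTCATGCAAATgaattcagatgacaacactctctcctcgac
Sec16b site (shared), chr1:157646032-157646112: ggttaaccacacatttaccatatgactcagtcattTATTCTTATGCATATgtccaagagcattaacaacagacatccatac
Slc30a5 site (Oct4-only), chr13:101051538-101051644: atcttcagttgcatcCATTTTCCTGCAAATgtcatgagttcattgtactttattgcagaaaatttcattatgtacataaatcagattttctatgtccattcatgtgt
Ncam2 site (Oct4-only), chr16:81870133-81870213: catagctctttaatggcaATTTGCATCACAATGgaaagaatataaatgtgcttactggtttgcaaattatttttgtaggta
Nudt12 site (Oct4defSox2-only), chr17:59922072-59922152: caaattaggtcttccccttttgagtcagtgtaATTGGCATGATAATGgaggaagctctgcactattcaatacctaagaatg
Clstn2 site (Oct4defSox2-only), chr9:98016472-98016569: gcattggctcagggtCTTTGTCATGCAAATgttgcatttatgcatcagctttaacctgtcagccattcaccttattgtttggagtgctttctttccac

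The match of the Sox9 site had 0 mismatches and lay 29046 bp from the start of Sox9, a Sox-family regulator of chondrocytes and many progenitor cells. This intergenic summit scored 48.9 in the Oct4 list and 149 in the Oct4defSox2 list, where a score is the MACS2 p-value of a summit as −log10. It ranked 274 of 8199 and 145 of 31060. The shared Sec16b site, intergenic and 119925 bp from the nearest coding start, scored 87.7 and 205 with a match of 2 mismatches, and it also held an AP-1 site. Both sites were occupied again by Oct4 at days 5 and 7.

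Among Oct4-only sites, the strongest SoxOct site without MORE scored 45.7 and was intergenic, 218177 bp from the start of Slc30a5, with 2 mismatches. Sox2 of Oct4-SK cells had a day 1 summit there with a score of 17.95, and the nearest Oct4defSox2 summit was 50991 bp away. The Ncam2 site was intergenic, in a soft-masked repeat and 669476 bp from the start of Ncam2, the nearest coding gene. Its minus-strand match had 0 mismatches, but the summit ranked only 6060 with a score of 8.00. It was the 1 Oct4-only site with a perfect match (0.0287%), against 7 shared (0.149%) and 27 Oct4defSox2-only sites (0.103%), and the difference between the last and Oct4-only sites was within counting error (−0.0738 points, −0.126 to 0.0637).

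The strongest Oct4defSox2-only SoxOct site without MORE scored 127 and ranked 209, with a minus-strand match of 2 mismatches and an AP-1 site. It lay in an intron of the gene model AC154244.1, 908740 bp from the start of Nudt12, the nearest coding gene. The Clstn2 site lay in an intron of Clstn2, a neuronal calsyntenin, with a perfect match and a score of 46.2. Oct4 itself had no summit there at day 1 but scored 11.9 at day 5 and 15.4 at day 7.

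Sites with both elements, 28 Oct4-only and 76 Oct4defSox2-only, reached higher scores, up to 165 at rank 11 and 222 at rank 53.

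The strongest sites with a MORE match and no SoxOct match are shown for the homodimer element, which is in capitals.
Sort1 site (shared), chr3:108304817-108304936: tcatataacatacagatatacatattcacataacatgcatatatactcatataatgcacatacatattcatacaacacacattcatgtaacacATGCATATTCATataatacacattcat
Ccdc148 site (Oct4-only), chr2:59033808-59033888: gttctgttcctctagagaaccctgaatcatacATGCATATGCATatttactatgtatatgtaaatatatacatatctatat
Prkd1 site (Oct4defSox2-only), chr12:50538473-50538553: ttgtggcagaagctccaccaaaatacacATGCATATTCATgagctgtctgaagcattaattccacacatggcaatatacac

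Each of these 3 matches had 0 mismatches, and all 3 summits lay in introns and in soft-masked repeats. The Sort1 site, in the gene of the sorting receptor sortilin, was the strongest of all Oct4defSox2 summits with a score of 664, and ranked 4 in the Oct4 list with a score of 219.8. The Ccdc148 site scored 89.7 for Oct4, with the nearest Oct4defSox2 summit 26303 bp away. The Prkd1 site, in the gene of a protein kinase D, scored 206 for Oct4defSox2, and Oct4 had a summit of 15.2 there at day 5. Of sites with no POU motif, the strongest were a shared site in an intron of Lims1 (146 for Oct4 and 335 for Oct4defSox2), an Oct4-only site 24462 bp from Kcnd3 (158) and an Oct4defSox2-only site in an intron of Immp2l (197).

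Most Oct4 sites were found again in the Oct4defSox2 list, and the stronger the Oct4 site, the more often. Of the Oct4 sites, 4714 (57.5%, Wilson 95% interval 56.4 to 58.6) had an Oct4defSox2 summit within 100 bp, against 0.372% of points 10 kb to either side. In the other direction, 4708 of the Oct4defSox2 sites (15.2%, 14.8 to 15.6) had an Oct4 summit, against 0.0982% of such points. This left 3485 Oct4-only and 26352 Oct4defSox2-only sites. The read depth behind the lists is unknown here, and its part in their unequal lengths was not tested.

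Most sharing was at close range. The share of Oct4 sites with an Oct4defSox2 summit was 12.6% within 10 bp, 28.0% within 25 bp, 44.7% within 50 bp, 65.4% within 250 bp and 68.3% within 1000 bp. Just inside the limit, at 81 to 100 bp, there were 295 Oct4 sites with a median score of 10.2. Just outside, over 100 and up to 120 bp, there were 196 with a median of 9.47. In 4706 pairs each summit was the nearest of the other, and the median distance within these pairs was 27 bp.

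Sharing fell along the ranks of both lists. The lists were divided into 10 rank bins of equal size. In the strongest bin of the Oct4 list 86.3% (83.8 to 88.5) of sites were shared, in bin 5 57.7% and in the weakest 33.0% (29.8 to 36.3), a difference of 53.4 points (49.2 to 57.2) between the ends. For Oct4defSox2, the strongest bin was shared at 58.6% (56.9 to 60.4), bin 2 at 27.5% and the weakest at 3.06% (2.51 to 3.73).

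**Figure D1:**
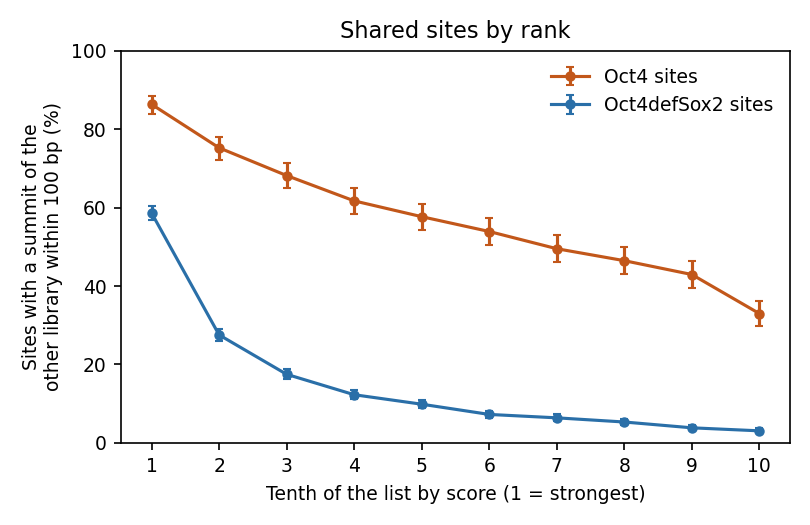
Share of sites (%) with a summit of the other library within 100 bp, by rank bin of each list (10 bins by score, 1 is strongest), with Wilson 95% intervals. Oct4 sites fall from 86.3% to 33.0% and Oct4defSox2 sites from 58.6% to 3.06%.

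When the lists were limited to equal numbers, the overlap was nearly the same at every depth. Among the strongest 250 of each list 85 sites (34.0%, 28.4 to 40.1) were shared, among the strongest 1000 35.2% (32.3 to 38.2), and among the strongest 8199 37.1% (36.1 to 38.2). Presence in the other list was far more frequent than presence at its top. Of the strongest 250 Oct4 sites 229 (91.6%) were in the whole Oct4defSox2 list, and of the strongest 250 Oct4defSox2 sites 224 (89.6%) were in the whole Oct4 list. Across the 4706 pairs the scores had a Spearman correlation of 0.35, given as a description since both libraries share the antibody and base composition.

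Shared sites held POU motifs most often, and Oct4-only sites held more degenerate SoxOct elements than Oct4defSox2-only sites. SoxOct matches, with up to 2 mismatches within 100 bp of the summit, lay at 805 of 4714 shared sites (17.1%, 16.0 to 18.2), 431 of 3485 Oct4-only sites (12.4%, 11.3 to 13.5) and 1539 of 26352 Oct4defSox2-only sites (5.84%, 5.56 to 6.13). In windows 2 kb to either side the shares were 1.26%, 0.847% and 1.20%. The Oct4-only share exceeded the Oct4defSox2-only share by 6.53 points (5.44 to 7.70).

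That difference lay in matches with 2 mismatches, which were at 11.3% of Oct4-only and 4.79% of Oct4defSox2-only sites, a difference of 6.52 points (5.47 to 7.64). Matches with 1 mismatch were at 1.03% and 0.949%, a difference of 0.084 points (−0.228 to 0.493), and with no more than 1 mismatch allowed the classes differed by 0.011 points (−0.308 to 0.425). Against both, shared sites were richer in matches with 1 mismatch, at 2.80% (2.37 to 3.31).

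The parts of the element differed between the classes. Among the SoxOct matches, the 8-base octamer part was intact in 24.2% (22.1 to 26.4) at Oct4defSox2-only sites, 18.1% (15.6 to 20.95) at shared and 12.99% (10.1 to 16.5) at Oct4-only sites. Oct4-only sites were 11.2 points below Oct4defSox2-only sites (interval of the difference −14.8 to −7.11). In flanking windows the octamer part was intact in 13.3% (10.9 to 16.2) of the matches beside Oct4defSox2-only, 9.24% (5.24 to 15.8) beside shared and 15.3% (8.24 to 26.5) beside Oct4-only sites. The value at Oct4-only summits thus lay within the interval of their own flanks. The 6-base Sox part was intact in 42.6%, 46.6% and 40.6% of matches, and Oct4-only and Oct4defSox2-only sites did not differ past counting error (−2.02 points, −7.19 to 3.28). Shared sites exceeded Oct4-only sites by 5.98 points (0.1675 to 11.7), and Oct4defSox2-only sites by 3.96 points, within counting error (−0.271 to 8.19).

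The spacing of the parts was also read without the composite consensus, from short Sox sites (CATTGT or CTTTGT) and octamers with up to 1 mismatch. With the Sox site upstream on the same strand and 1 base between them, as in the canonical element, the pair lay at 58 shared sites (1.23%, 0.953 to 1.59), 9 Oct4-only sites (0.258%, 0.136 to 0.490) and 121 Oct4defSox2-only sites (0.459%, 0.385 to 0.548). No other gap from 0 to 20 bases in this arrangement exceeded 0.233%, 0.172% and 0.148% of the same classes. The canonical gap was thus the most frequent of these in each class, Oct4defSox2-only sites included, though at Oct4-only sites only by 9 sites against 6.

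**Figure D2:**
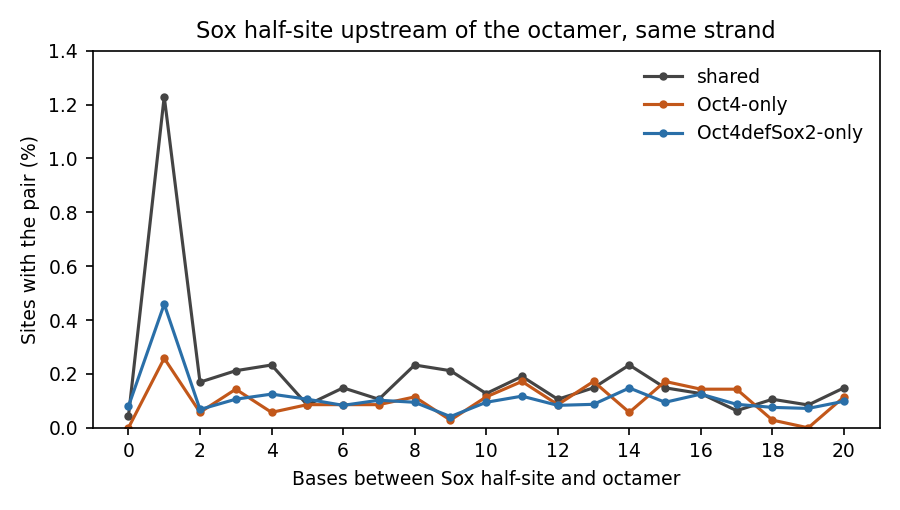
Share of sites (%) with a Sox site upstream of an octamer on the same strand, by the number of bases between them, in the 3 site classes. The gap of 1 base stands out at 1.23% of shared, 0.459% of Oct4defSox2-only and 0.258% of Oct4-only sites.

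MORE or MORE+1 matches, with up to 1 mismatch, lay at 13.2% (12.2 to 14.2) of shared, 6.77% (5.98 to 7.66) of Oct4-only and 6.00% (5.72 to 6.30) of Oct4defSox2-only sites, with flanking shares of 0.743%, 0.976% and 0.824%. The last 2 classes differed by 0.769 points (−0.072 to 1.70), within counting error, and by −4.01 points when both lists were limited to their strongest 8199 summits. Perfect matches went the other way, with 21 at Oct4-only sites (0.603%) and 427 at Oct4defSox2-only sites (1.62%), a difference of −1.02 points (−1.28 to −0.669). Matches with 1 mismatch were at 6.17% of Oct4-only and 4.38% of Oct4defSox2-only sites (1.79 points, 0.993 to 2.67). Counted by itself, MORE+1 was at 4.24% of shared, 1.09% of Oct4-only and 1.65% of Oct4defSox2-only sites. MORE without the added base went the other way between the last 2 classes, at 5.71% and 4.43% (1.28 points, 0.515 to 2.14).

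Oct4defSox2-only sites held the octamer alone, Sox sites and AP-1 sites more often than Oct4-only sites. The octamer (ATGCAAAT, either strand) with neither SoxOct nor MORE was at 6.48% (6.19 to 6.79) of them and at 3.64% (3.07 to 4.32) of Oct4-only sites. The difference was −2.84 points (−3.49 to −2.10) for Oct4-only minus Oct4defSox2-only sites. Shared sites held it at 5.90%, within counting error of Oct4defSox2-only sites (−0.584 points, −1.29 to 0.182). Sox sites (CCATTGT or CCTTTGT followed by any base but A) were at 15.1% and 9.76%, windows with a SoxOct or MORE match included. AP-1 sites (TGACTCA or TGAGTCA), which bind Fos and Jun dimers of fibroblast enhancers, were at 14.3% and 8.09%. Of the shared sites 13.96% held a Sox and 13.7% an AP-1 site. About 6.0% of flanking windows held a Sox site and 3.299% of those of all Oct4 sites an AP-1 site. Most sites had no POU match within the mismatch limits used: 64.8% of shared, 78.0% of Oct4-only and 82.0% of Oct4defSox2-only sites. Weaker matches beyond these limits are not counted. A best SoxOct match with 3 mismatches was at 31.7% of shared sites and 9.02% of their flanking windows, and at 17.1% and 9.04% for Oct4defSox2-only sites.

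**Figure D3:**
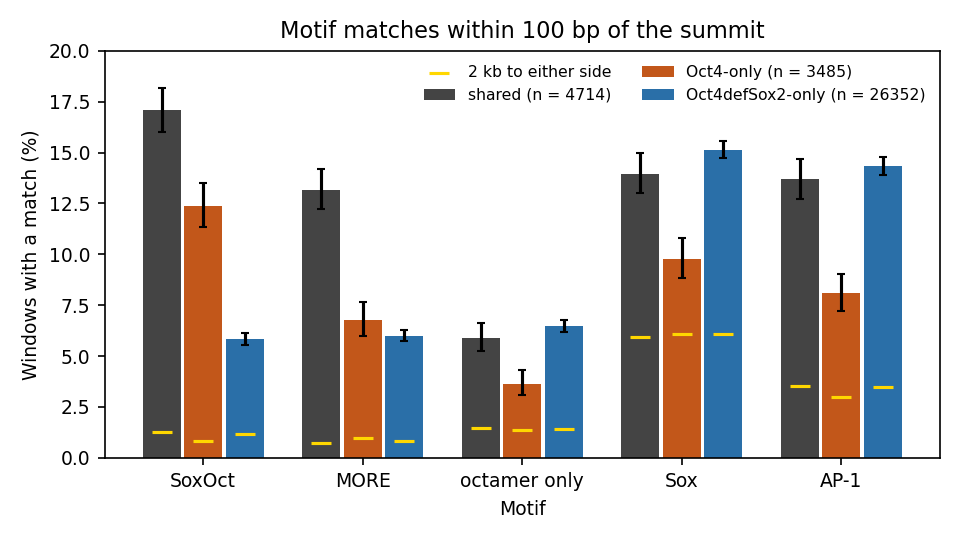
Share of windows (%) of 100 bp to either side of the summit with a match to each motif, by site class, with Wilson 95% intervals. Yellow marks give the share in windows 2 kb to either side, and SoxOct falls from 17.1% (shared) to 12.4% (Oct4-only) and 5.84% (Oct4defSox2-only).

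Since the lists differed in length, the motifs were also compared at equal numbers of the strongest summits. Both lists began at nearly the same score, 4.001 for Oct4 and 4 for Oct4defSox2. Among the strongest 250 sites, MORE was at 46.8% of Oct4defSox2 and 27.6% of Oct4 sites, a difference of −19.2 points (−27.3 to −10.8) for Oct4 minus Oct4defSox2. Among the strongest 1000 it was at 32.1% and 22.1%, and among the strongest 8199 at 12.98% and 10.5% (−2.53 points, −3.51 to −1.54). SoxOct went in the opposite direction, with 17.1% of the strongest 1000 Oct4defSox2 and 21.8% of the strongest 1000 Oct4 sites (4.70 points, 1.23 to 8.16). Among the strongest 8199 of each list this excess lay in matches with 2 mismatches, at 1060 Oct4 and 737 Oct4defSox2 sites, whereas matches with 1 mismatch were at 168 and 174 and perfect ones at 8 and 19 sites. At 250 sites its difference of 4.40 points was within counting error (−2.60 to 11.4), while among the strongest 250 outside soft-masked repeats it was 12 points (4.39 to 19.4). In the Oct4 list the order of the elements varied with depth and repeats. MORE was at 27.6% and SoxOct at 22% of the strongest 250, they were at 22.1% and 21.8% of the strongest 1000, and at 15.6% and 24.8% of the strongest 1000 outside repeats.

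**Figure D4:**
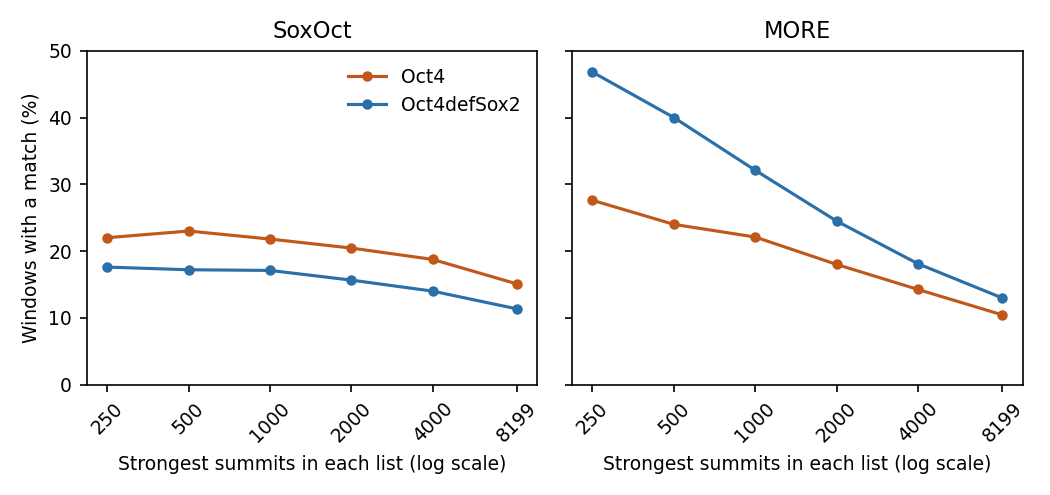
Share of windows (%) with a SoxOct (left) or MORE (right) match among equal numbers of the strongest summits of each list, on a log axis. For MORE the Oct4defSox2 line lies above that of Oct4, at 46.8% against 27.6% for 250 summits, and for SoxOct it lies below.

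Summits in repeats moved with MORE. Of the MORE sites without SoxOct, 39.0% of the Oct4 and 29.4% of the Oct4defSox2 sites lay in soft-masked repeats, against 21.2% and 17.1% of sites with no POU motif. Among the strongest 1000 summits outside repeats the direction was as before, with MORE at 15.6% of Oct4 and 24.7% of Oct4defSox2 sites (−9.10 points, −12.6 to −5.60).

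Over all ranks, Oct4 sites with either composite element were shared more often than sites with no POU motif. Of the SoxOct sites 65.1% (62.4 to 67.7) had an Oct4defSox2 summit, of the MORE sites 72.5% (69.4 to 75.4) and of the sites without POU motif 52.9% (51.6 to 54.2). The differences from the last were 12.2 points (9.24 to 15.1) and 19.6 points (16.2 to 22.7). These values are not matched for rank, and within rank bins the SoxOct excess varied. SoxOct was at 17.8% of shared and 17.7% of Oct4-only sites in bin 2, and at 18.4% and 21.1% in bin 3. The shares were 17.6% and 12.4% in bin 5, and 12.1% and 11.9% in bin 8. MORE was more frequent at shared sites in each bin, with 14.1% against 8.43% in bin 3. Leaving aside 72 sites with both, the SoxOct share minus the MORE share was −8.13 points (−12.2 to −3.96). Closer matches of the Oct4 list were shared more often. The share was 78.6% (71.8 to 84.1) with 1 SoxOct mismatch and 62.8% (59.9 to 65.7) with 2, and 87.3% (81.3 to 91.5) of perfect MORE sites were shared.

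From the Oct4defSox2 list the order of the elements was the opposite. Of its SoxOct sites 33.9% (32 to 35.8) were shared, of its MORE sites 28.4% (26.6 to 30.3) and of those without POU motif 12.4%, and without sites holding both the SoxOct share exceeded the MORE share by 5.80 points (3.04 to 8.55). Closer matches were not shared more often there, with 7 of 34 perfect SoxOct sites (20.6%, 10.4 to 36.8) against 34.9% with 1 mismatch, and 25.2% (21.8 to 28.9) of perfect MORE sites against 29.5% (27.4 to 31.8) with 1 mismatch.

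Within the pairs, the relative rank depended on the element. Each pair was ranked by its score among all pairs in either library. The Oct4defSox2 rank was the better one in 60.5% (56.4 to 64.4) of the 577 MORE pairs and 61.4% (55.5 to 66.9) of the 277 pairs with an octamer alone. It was so in 47.1% (43.6 to 50.7) of the 760 SoxOct pairs and 49.0% (47.2 to 50.8) of the 3048 pairs without POU motif. MORE exceeded SoxOct pairs by 13.4 points (8.00 to 18.6), and SoxOct pairs did not differ from pairs without motif past counting error (−1.91 points, −5.86 to 2.06). The summits of both libraries lay close to the SoxOct match, at a median of 21 bp for Oct4 and 25 bp for Oct4defSox2 over 804 pairs.

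Sox2 was found at fewer of the shared sites in Oct4defSox2-SK than in Oct4-SK cells at day 1, and the gap in points was smaller at day 5. At day 1, Oct4-SK cells had a Sox2 summit at 1217 of the 4714 shared sites (25.8%, 24.6 to 27.1). In Oct4defSox2-SK cells there were 380 (8.06%, 7.32 to 8.87), a paired difference of 17.8 points (16.5 to 19.03). The Sox2 lists held 15219 and 5793 summits. With the strongest 5793 of each, chosen as an alternative after the data had been seen, the shares were 19.5% and 8.06%, and the difference 11.4 points (10.3 to 12.6).

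The difference was seen at sites with and without a POU match within the mismatch limits used. At shared SoxOct sites without MORE the shares were 28.8% in Oct4-SK and 5.26% in Oct4defSox2-SK cells (23.5 points, 20.4 to 26.7), at MORE sites 11.1% and 3.12% (7.97 points, 5.38 to 10.8) and at sites with no POU motif 28.3% and 10.2% (18.1 points, 16.5 to 19.8). Of the 403 Oct4-only SoxOct sites, 49 had Sox2 in Oct4-SK cells and 2 in Oct4defSox2-SK cells. With equal numbers of Sox2 summits the shares of these sites were 9.18% and 0.496% (8.685 points, 6.11 to 11.9). With equal numbers of Sox2 summits the differences at shared sites were 15.6 points (12.9 to 18.6) for SoxOct, 5.37 points (3.06 to 7.90) for MORE and 11.4 points (9.90 to 12.9) without POU motif.

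At day 5, shared sites had Sox2 at 10.8% in Oct4-SK and 9.46% in Oct4defSox2-SK cells, from lists of 5793 and 21551 summits. The paired difference was 1.34 points (0.337 to 2.34), or 5.64 points (4.74 to 6.56) with equal numbers of Sox2 summits. With equal numbers the shares were 10.8% and 5.155%, both lower than the 19.5% and 8.06% of day 1. At SoxOct sites the day 5 difference was 7.75 points (5.05 to 10.5), or 11.7 points (9.16 to 14.4) with equal numbers, against 15.6 at day 1 with equal numbers. It was 0.347 points (−1.62 to 2.34) at MORE sites, or 1.91 points (0.234 to 3.76) with equal numbers, and at sites without POU motif −0.197 points (−1.49 to 1.10), or 4.94 points (3.79 to 6.12) with equal numbers.

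Oct4defSox2-only sites were another matter. Sox2 lay at 10.3% of them in Oct4-SK and 8.76% in Oct4defSox2-SK cells at day 1, a difference of 1.56 points (1.13 to 2.00), which turned to −2.29 points (−2.69 to −1.90) with equal numbers of Sox2 summits. At day 5, Sox2 of Oct4defSox2-SK cells lay at 13.6% (13.2 to 14.02) of these sites and Sox2 of Oct4-SK cells at 4.69% (4.45 to 4.96). There the longer list was that of Oct4defSox2-SK cells, with 21551 against 5793 summits, and at equal numbers the shares were 7.50% and 4.69% (−2.81 points for Oct4-SK minus Oct4defSox2-SK, −3.14 to −2.48). At SoxOct sites of this class, Sox2 was more frequent in Oct4-SK cells at day 1, at 9.64% against 3.55% (6.08 points, 4.57 to 7.68), and by 2.67 points (1.36 to 4.03) with equal numbers of Sox2 summits.

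Sites shared with Oct4defSox2 were found again more often in the later Oct4 lists. Of the shared sites 35.8% (34.5 to 37.2) had an Oct4 summit at day 5 and 18.5% (17.4 to 19.7) at day 7, against 9.27% (8.35 to 10.3) and 5.60% (4.88 to 6.41) of Oct4-only sites. The difference at day 5 was 26.6 points (24.9 to 28.2). It was present within each of the 10 rank bins of the Oct4 list, from 34.1 points (24.2 to 43.1) in the strongest to 10.1 points (5.86 to 14.4) in bin 8. Of the shared SoxOct and MORE sites, 52.7% (49.1 to 56.2) and 56.0% (51.9 to 59.98) were found again at day 5, and of shared sites without POU motif 28.4%. At day 7 the shares were 39.2% (35.7 to 42.7) of SoxOct, 21.1% (18.01 to 24.7) of MORE and 12.8% of sites without POU motif. Of the Oct4defSox2-only SoxOct sites, 12.99% (11.4 to 14.8) had an Oct4 summit at day 5 and 16.1% (14.3 to 18.1) at day 7. For MORE sites of that class these shares were 8.50% (7.19 to 10.02) and 2.86% (2.13 to 3.82), and without POU motif 2.74% and 1.39%.

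Few sites were found in the later Oct4defSox2 list. Its day 5 list of 1034 summits covered 8.40% (7.64 to 9.23) of the shared, 0.115% of the Oct4-only and 1.26% (1.13 to 1.398) of the Oct4defSox2-only sites. Of the shared MORE sites 29.3% (25.7 to 33.1) were in that list, of the shared SoxOct sites 4.07% (2.88 to 5.72) and of those without POU motif 5.44% (4.69 to 6.30). Among Oct4defSox2-only sites, too, the share was highest at MORE, with 6.57% against 0.957% at SoxOct and 0.880% without POU motif. Oct4 S151M, an Oct4 with a change at a residue that governs homodimer formation and a list of 101151 summits, lay at 87.2% of shared, 66.4% of Oct4-only and 35.7% of Oct4defSox2-only sites at day 1.

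**Figure D5:**
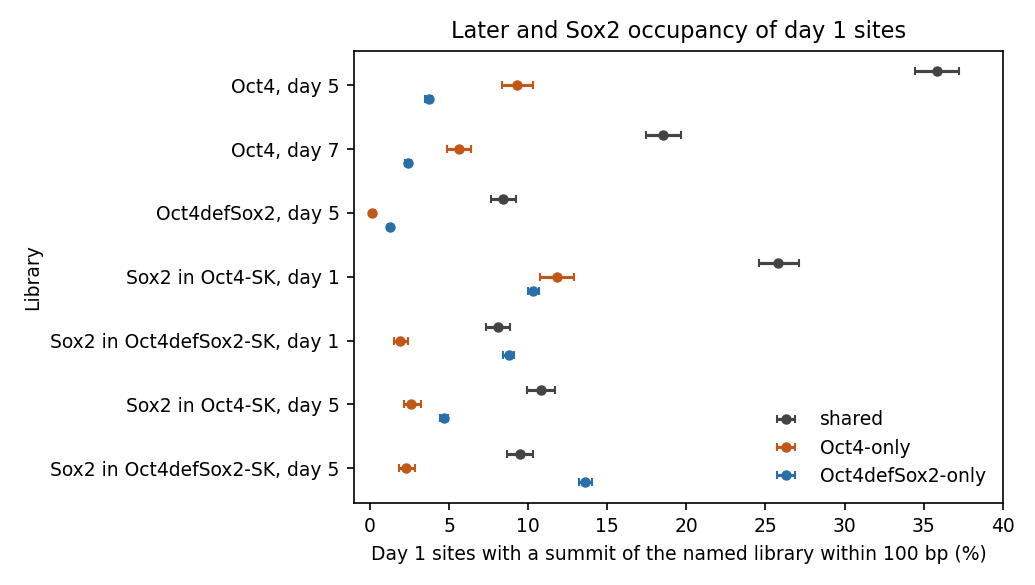
Share of day 1 sites (%) of each class with a summit of the named library within 100 bp, with Wilson 95% intervals. Shared sites lie at 35.8% for Oct4 at day 5 and fall from 25.8% to 8.06% between Sox2 of Oct4-SK and of Oct4defSox2-SK cells at day 1.

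The classes were alike in the share of introns and differed in that of repeats. Summits within 1 kb of an annotated start made up 5.30% of shared, 4.88% of Oct4-only and 6.58% of Oct4defSox2-only sites, and introns 47.9%, 48.8% and 47.2%. Oct4-only sites were 1.70 points less often at promoters than Oct4defSox2-only sites (interval −2.43 to −0.878), a difference that was −0.532 points (−1.90 to 0.900) with promoters of 5 kb. Summits in soft-masked repeats were at 20.5% of shared, 23.8% of Oct4-only and 17.3% of Oct4defSox2-only sites, all below the 28.4% to 29.3% of flanking windows. Oct4-only sites exceeded Oct4defSox2-only sites by 6.49 points (5.03 to 8.01), and shared minus Oct4-only sites was −3.35 points (−5.18 to −1.53).

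Sites near genes were counted within 50 kb of the start of each of 21911 coding genes. Of these, 23.7% had an Oct4 summit, 56.5% an Oct4defSox2 summit and 14.9% a shared site. In a list of 25 genes of the pluripotency network, 12 (48.0%) had an Oct4 summit, 17 (68.0%) an Oct4defSox2 summit and 12 (48.0%) a shared site. Each of the 12 genes with an Oct4 summit thus had a shared one, while 5 had Oct4defSox2 summits alone.

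At Tet2, which encodes a DNA dioxygenase that oxidises 5-methylcytosine, both libraries had a summit at an annotated start with a MORE match. It scored 27.7 for Oct4 and 249 for Oct4defSox2, ranking 895 and 42. The site at −1975 bp from the start of Pou5f1 held SoxOct and scored 44.7 and 48.5. Lefty1, an inhibitor of Nodal signalling, had 3 Oct4 and 4 Oct4defSox2 summits, all 3 of the former shared. Near Etv5, an ETS factor, the strongest Oct4defSox2 summit scored 190.2, lay at −114 bp from a start and was not shared. Sox2 had 2 Oct4 and 3 Oct4defSox2 summits, and both Oct4 summits lay in its exons.

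Some summits lay within exons of the transduced genes, of which Pou5f1 and Sox2 were in this count and Klf4 was not. Each list had 1 summit in an exon of Pou5f1, with scores of 17.4 for Oct4 and 9.86 for Oct4defSox2. Klf4 exons had 2 in each list and Sox2 exons 2 for Oct4 and 1 for Oct4defSox2. Without these summits, a count made after the data had been seen, 11 of the 25 genes (44%) had an Oct4 summit and the same number a shared site, since those of Oct4 at Sox2 were all in exons. The part of the retroviral copies in these summits was not tested.

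More genes of the fibroblast programme had an Oct4defSox2 than an Oct4 summit, as among all coding genes. Of 20 mesenchymal transcription factor genes, 13 (65.0%) had an Oct4defSox2 summit, 9 (45%) an Oct4 summit and 3 (15.0%) a shared site. Runx2, a master regulator of bone formation, had 12 Oct4defSox2 summits, 11 of them not shared. Tead1, a partner of the Hippo effector Yap, had 7, and Runx1 had 6, with 0 shared at either gene. Prrx1, a homeobox gene of limb mesenchyme, had 2 of its 4 shared, and Twist1 1 of its 3. Snai1, a repressor of epithelial genes named after its values had been seen, went the other way with 2 Oct4 summits and 0 of Oct4defSox2, and Meox2 and Zeb1 had 1 summit of each factor.

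Of 18 extracellular matrix genes, 12 (66.7%) had an Oct4defSox2 summit, 6 (33.3%) an Oct4 summit and 3 (16.7%) a shared site. The collagen gene Col3a1 had a shared summit of 58.6 for Oct4 and 54.3 for Oct4defSox2. The matrix genes Thbs1 and Tnc had 4 Oct4defSox2 summits each, and Col1a2 4 with 0 of Oct4. Fn1, of fibronectin, had 1 shared site. The collagen gene Col5a1, also named after its values had been seen, had 1 Oct4 summit and 0 of Oct4defSox2.

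Among 18 epithelial genes, 12 (66.7%) had an Oct4defSox2 summit, 4 (22.2%) an Oct4 summit and 0 a shared site. Esrp1, an epithelial splicing regulator, had 3 Oct4defSox2 summits, while Cdh1, the gene of E-cadherin, and Dsp, of desmoplakin, had 2 each, all with 0 of Oct4. Esrp2 and the tight-junction gene Ocln each had 1 summit of either factor, none of them shared. Krt8, a keratin gene of simple epithelia named after its values had been seen, went the other way, with an Oct4 summit of 69.7 at rank 118 and 0 of Oct4defSox2. Grhl2, an epithelial transcription factor gene, likewise had 1 Oct4 summit, of 4.30, and 0 of Oct4defSox2. Of 21 TGF-beta pathway genes, 11 (52.4%) had an Oct4defSox2 summit, 7 (33.3%) an Oct4 summit and 2 (9.52%) a shared site. The type I receptor gene Acvr1 led them with 3 Oct4 and 8 Oct4defSox2 summits, and its strongest, a shared SoxOct site, scored 35.0 and 70.8. Smad2, Inhba and Bmpr1a had 3, 2 and 2 Oct4defSox2 summits, and 0 shared.

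In a list of 29 POU and Sox genes, 20 (69.0%) had an Oct4defSox2 summit, 10 (34.5%) an Oct4 summit and 9 (31.0%) a shared site. Sox21, a Sox repressor gene named after its values had been seen, had the strongest site of both factors in this list, a shared SoxOct site of 77.4 for Oct4 and 222 for Oct4defSox2. The best Oct4defSox2 summit of Pou6f1 scored 179 at −99 bp from a start, within a shared site. Sox6 had 8 Oct4defSox2 summits and 0 of Oct4, whereas Sox9 had 3 Oct4 summits, all shared. Of 17 neural progenitor genes, 13 (76.5%) had an Oct4defSox2, 5 (29.4%) an Oct4 and 3 (17.6%) a shared site. Hes5, a Notch target, had a shared site of 20.3 for Oct4 and 163 for Oct4defSox2. Dll1 and Fabp7 had 1 shared site each. Of 12 AP-1 genes, 5 (41.7%) had an Oct4defSox2 summit, 2 (16.7%) an Oct4 summit and 1 (8.33%), Fos, a shared site. Jund, a partner of Fos in AP-1, had an Oct4defSox2 summit of 94.7 at −115 bp from its start.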

How the data were processed

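Per the study's methods, paired-end ChIP-seq reads were aligned by the authors to mm10 with Bowtie2 (version 2.2.5 per the submitters' processing notes), filtered for mapping quality and duplicates with samtools, and peaks were called with MACS2 in each library at a p-value threshold, with several summits allowed per peak. The lowest score was 4 to 4.12 in all lists but that of Oct6 M151S, where it was 2.301. The authors deposited, for every summit, its MACS2 p-value on a −log10 scale, called the score here. It moves with read depth, so calculations used it only to rank summits within a list or as a minimum. Scores of both lists printed for 1 site are descriptions, and their sizes were not compared. Read depth is unknown here, and the 3 inputs were not analysed here.

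The lists held 8216 Oct4 and 31070 Oct4defSox2 summits, of which 17 and 10 lay off chromosomes 1 to 19, X and Y and were left out. Each 201 bp window around a summit was searched on either strand for motif consensus strings, with up to 2 mismatches for SoxOct, 1 for MORE and MORE+1 and 0 for the others. The sequence was the RefSeq GRCm38 assembly and gene starts came from GENCODE M21. Background was taken 10 kb (sharing) or 2 kb (motifs) to either side.

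Shares have Wilson and differences Newcombe 95% intervals, paired where the same sites were scored. As each group had 1 library, replicates could not be tested. Differences whose interval left out 0 are called past counting error. Sites were named as the strongest of each class with SoxOct and no MORE, MORE and no SoxOct or no POU motif, outside chromosome 18 and UTRs, and genes as the nearest to these or up to 5 per list with the most summits. A few further genes and the sites with the fewest mismatches were named after their values had been seen. The members and the 8 gene lists, of 160 genes, were chosen with earlier results of these data known. Calculations used Python 3.11.15, numpy 2.4.6, pandas 2.3.3 and scipy 1.17.1, and figures matplotlib 3.10.9. Sharing, motif search and intervals were first tested on simulated data with known answers.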

Additional observations from a re-analysis of the deposited data

How the results depend on the processing

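The 10 differences were recomputed in 82 alternatives, of which 75 were planned and 7 were added after the data had been seen, and 76 kept their direction and their side of the counting error. A stricter motif match (SoxOct up to 1 mismatch, MORE 0) took the excess of SoxOct at Oct4-only over Oct4defSox2-only sites to 0.0105 points. The MORE difference between these classes, 0.769 points, reversed to −1.02 points under the stricter match and to −4.01 points with 8199 summits in each list. It passed counting error at 1.45 points when sharing reached 250 bp and at 7.12 points under a looser match. The promoter difference fell within counting error, at −0.532 points, with promoters of 5 kb. In the other 76 some sizes moved: with equal numbers the share of Oct4 sites over background was 37.0 points in place of 57.1, that of Oct4defSox2 sites 37.0 in place of 15.1, and the promoter difference −0.984 points in place of −1.70. The SoxOct excess at Oct4-only sites was 20.9 points under the looser match. The difference in Sox2 at shared sites was 10.01 points within 50 bp and 11.4 with equal Sox2 lists, in place of 17.8. The excess of sharing at SoxOct and MORE sites over sites without POU motif was 7.27 and 12.75 points within 250 bp and 23.8 and 32.1 points under the stricter match, and the fall in sharing along the Oct4 ranks was 36.3 points, not 53.4, within 250 bp. Sites with Oct4, Sox2 and Oct6 antibody summits, 401 and 941 of the lists, changed no call when left out. The cause of these shifts was not tested. No paired analysis was possible because each group had 1 library and so no replicates to pair. The paired intervals of the Sox2 comparison are over sites. Without replicates and read depth, differences in list length cannot be told apart from differences in binding.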

Other observations

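Oct4defSox2-only sites lay more often on the X chromosome than either other class. The X share also differed between whole lists, at 2.70% for Oct4defSox2 and 1.84% for Oct4 at day 1. Across the series it ran from 0.863% (Sox2 in Oct4-SK cells at day 5) to 3.59% (Oct4 S151M). Chromosome X held 2.06% of shared, 1.55% of Oct4-only and 2.81% of Oct4defSox2-only sites, a difference of −1.26 points (−1.68 to −0.758) for Oct4-only minus Oct4defSox2-only sites and of −0.754 points (−1.18 to −0.268) for shared minus Oct4defSox2-only sites. The median GC content of the windows was 38.3% at shared and Oct4-only sites and 39.3% at Oct4defSox2-only sites, against 41.3% in the flanking windows of each. Oct6 M151S, profiled with an antibody against Oct6 and with a lower lowest score (2.301) than the other lists, lay at 11.2% of shared sites, 4.48% of Oct4-only and 4.60% of Oct4defSox2-only sites.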
